A study of Drosophila melanogaster with 31 samples.

Results

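The 80 genes described here are nuclear genes for subunits of the oxidative phosphorylation complexes, or paralogs of such genes. They were chosen by name: every gene whose symbol begins with ND-, UQCR-, COX and a digit, or ATPsyn, of 16884 genes and transposon consensus sequences listed for the RNA libraries. Of 83 matching symbols, 3 were COX genes of the mitochondrial genome and were left out. The names give 40 genes of complex I (ND-), 9 of complex III (UQCR-), 16 of complex IV (COX) and 15 of complex V (ATPsyn).

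Oxidative phosphorylation takes place in the inner mitochondrial membrane. Complex I oxidises NADH, complex III passes the electrons on to cytochrome c, and complex IV hands them to oxygen. Each of these pumps protons across the membrane, and complex V, the ATP synthase, uses the proton gradient to make ATP. Nuclear and mitochondrial genes both contribute subunits, and flight muscle, photoreceptors and neurons are known for high demand on the pathway. Many fly subunits have a second gene copy, and such copies are often used in the testis.

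The study asked what Modulo (Mod), the fly homolog of the nucleolar protein Nucleolin, does with Piwi in transposon silencing and development. RNA was sequenced from ovaries of mod07570/+, modL8/+ and mod07570/L8 flies and from heads of mod07570/+ and mod07570/L8 flies, with 3 libraries in each group. The other heads, 3 libraries with ectopic eye outgrowths (EEO) and 3 without, carry mod07570/L8 in their labels. The study's text, in conflict with these labels, describes the progeny with EEO as having a single copy of mod. The study's methods score EEO in the progeny of mod07570/L8 females mated to males with KrIf-1, and these heads are called KrIf-1 cross heads here. The mod07570 allele is a hypomorphic P-element insertion, modL8 is an amorphic allele with a deletion near the end of arm 3R, and no group labelled wild type for mod is among the RNA libraries analysed here. Flies were kept at 25 °C; age and sex are not given in the labels.

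The 21 libraries held between 12820086 and 22695680 estimated counts. The mod transcript stood at 334 ± 8.64 cpm (counts per 1000000 counts of the library, mean ± SD, n = 3) in mod07570/+ ovaries, 456 ± 6.63 cpm in modL8/+ ovaries and 11.3 ± 1.01 cpm in mod07570/L8 ovaries. In heads it was 18.9 ± 0.97 cpm in mod07570/L8, 62.6, 122 and 58.7 cpm in mod07570/+, 45.6 ± 7.9 cpm with EEO and 42.2 ± 6.7 cpm without EEO. The KrIf-1 cross heads, at 37.1 to 52.8 cpm of mod, overlapped neither the mod07570/L8 heads, at 18.2 to 20 cpm, nor the mod07570/+ heads. Among the mod07570/+ heads, replicate 2 held 260 cpm of 5 germline genes against 16.2 and 25 cpm, and replicate 3 held 9152 cpm of 10 muscle genes against 3401 and 3550 cpm. The 5 neuron genes summed to at least 2088 cpm in each head and at most 4.65 cpm in each ovary library. The 7 photoreceptor genes summed to at least 21530 cpm in heads and at most 160 cpm in ovaries, nearly all of the latter from norpA, a phospholipase C gene at 146 to 160 cpm in ovaries. The study's methods call the libraries of a group biological replicates without saying how animals were pooled, and p-values measure the spread between them.

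Summed over the 80 genes, the subunit transcripts made up 0.92% of the counts in mod07570/+ ovaries, 1.12% in mod07570/+ heads and 2.06% in heads without EEO. In mod07570/+ ovaries the sums were 9107, 9197 and 9306 cpm, in modL8/+ ovaries 9923, 9830 and 9780 cpm, and in mod07570/L8 ovaries 10140, 10210 and 10170 cpm. The 3 ovary groups did not overlap, and the SD within a group was at most 99.5 cpm. Heads of mod07570/+ gave 9608, 10250 and 13630 cpm and heads of mod07570/L8 gave 11010, 11350 and 12160 cpm, so these groups overlapped. Heads with EEO gave 27390, 19840 and 16820 cpm, a range that enclosed the 21410, 20650 and 19800 cpm of heads without EEO.

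**Figure D1:**
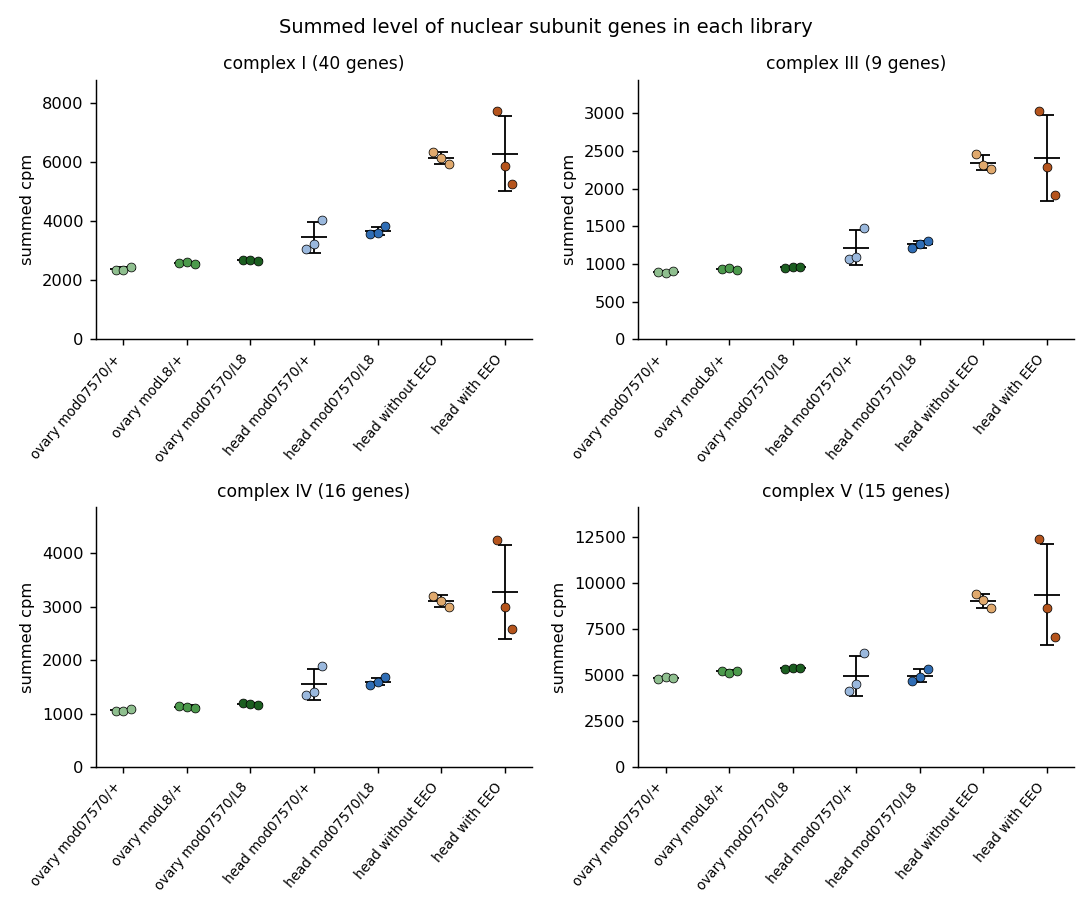
Summed cpm of the members of complexes I, III, IV and V in each of the 21 libraries, 1 panel per complex; points are libraries, long lines group means and brackets 1 SD (n = 3). In ovaries the complex V sums rose from a mean of 4855 cpm in mod07570/+ to 5371 cpm in mod07570/L8, and in the heads from the KrIf-1 cross they averaged 9041 cpm without EEO and 9387 cpm with EEO.

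The complexes kept the same order in every group. Complex V gave the largest sum, with 4855 ± 52.3 cpm in mod07570/+ ovaries, followed by complex I with 2387 ± 51.3 cpm, complex IV with 1066 ± 23 cpm and complex III with 895 ± 12 cpm. Heads of mod07570/+ had almost the same complex V sum, 4952 ± 1110 cpm, but more of complex I, 3445 ± 531 cpm, of complex IV, 1551 ± 293 cpm, and of complex III, 1216 ± 228 cpm. The sums of complexes I, III and IV did not overlap between those ovaries and heads, whereas the complex V sums did. These sums are on library totals, of which 4 fat body and yolk genes held 161900, 75020 and 87630 cpm in those heads. After TMM scaling, 10 of 11 tested complex V members were also lower in those ovaries, with a median log2 change of -0.62.

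Expression was split sharply between standard subunits and paralogs. Of the 80 genes, 59 reached 1 cpm in at least 3 of the 21 libraries, and 58 of them did so in ovaries. The other 21 genes were at or near the detection limit, with at most 30 counts in any library, and 20 of these were paralogs by symbol (an L after the name of a standard subunit). Only 1 paralog, COX7AL2, passed the filter.

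Levels between genes were compared as TPM, which corrects for transcript length. Means were taken over all libraries of a tissue, although the head groups differ. Within complex I the mean TPM over the 9 ovary libraries ran from 111 for ND-24, which carries an iron-sulfur cluster at the NADH-oxidising tip, to 956 for ND-MLRQ, whose mammalian counterpart is now placed in complex IV. The median complex I member stood at 169 TPM in ovaries and 313 TPM over the 12 head libraries, where ND-24 (178 TPM) and ND-MLRQ (2167 TPM) again marked the ends. The lower end changed between groups: ND-75 was lowest in mod07570/+ ovaries (104 TPM, ND-24 111 TPM), and ND-19 in mod07570/+ heads (139 TPM, ND-24 140 TPM) and mod07570/L8 heads (138 TPM, ND-24 147 TPM). ND-MLRQ was highest in all 7 groups, and in ovaries its libraries, 860 to 990 TPM, lay far above those of ND-24, 106 to 117 TPM.

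In complex III the core protein UQCR-C2 was lowest by TPM in both tissues (211 TPM in ovaries, 543 TPM in heads), and the highest members were UQCR-6.4 in ovaries (793 TPM) and UQCR-Q in heads (1286 TPM). UQCR-Q followed UQCR-6.4 in ovaries at 766 TPM, well inside the range of UQCR-6.4 over ovary libraries, 518 to 1003 TPM. In mod07570/L8 ovaries alone UQCR-Q was the highest, at 719 TPM. Both are small accessory subunits.

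Complex IV members were the most even in ovaries, from COX5B at 461 TPM to COX7B at 766 TPM, a span of 1.66-fold. In heads COX8, a small membrane subunit, was highest at 1633 TPM and the paralog COX7AL2 was lowest at 487 TPM.

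In complex V the proton-carrying ring subunit ATPsynC stood far above the rest, at 2606 TPM in ovaries and 3001 TPM in heads, followed in these means by the catalytic subunit ATPsynbeta at 1364 TPM and 1620 TPM. In the KrIf-1 cross heads other members came next after ATPsynC, ATPsynG with EEO (2091 TPM) and ATPsynF without EEO (2160 TPM). ATPsynC and ATPsynbeta are proteins present in several copies per enzyme. The lowest were the central stalk subunits ATPsyngamma in ovaries (393 TPM) and ATPsyndelta in heads (618 TPM).

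Ovaries that lack most mod transcript were first compared with mod07570/+ ovaries. By the sign of the change, most tested subunit genes of every complex were slightly higher in mod07570/L8. Of 58 members tested, 48 rose, 2 fell and 8 did not pass the test (edgeR quasi-likelihood F test, adjusted p under 0.05), where 38.5% of all 8295 features tested rose and 39.1% fell. The median change of the members was 0.22 on the log2 scale, or 1.16-fold, against -0.0027 for all features. The changes were small, and no member was past 1.5-fold. With library totals in place of TMM factors, 34 members rose and 2 fell (32.0% and 47.4% of all features), and the median was 0.13 against -0.09 for all features.

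All 11 tested members of complex V and all 8 of complex IV rose in mod07570/L8 ovaries, with median changes of 0.28 and 0.24. The largest change in complex V was that of ATPsynO, a stator subunit that links the catalytic head to the stalk. ATPsynO stood at 185, 193 and 198 cpm in mod07570/+ ovaries and at 247, 245 and 261 cpm in mod07570/L8 ovaries, a rise of 0.47 ± 0.031 (log2, SE, edgeR adjusted p = 3.17e-13) with no overlap. ATPsynB, another stator subunit, rose by 0.36 and ATPsynbeta by 0.34, from 1362, 1413 and 1357 cpm to 1646, 1613 and 1646 cpm. The ring subunit ATPsynC, highest of all by cpm, rose by 0.12 ± 0.022 after scaling (adjusted p = 4.87e-05), but its libraries overlapped in cpm, at 1847, 1845 and 1843 against 1815, 1904 and 1907. ATPsynE, an accessory subunit in the membrane, rose least, by 0.11 (adjusted p = 0.00409).

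Within complex IV, COX8 had the largest rise in mod07570/L8 ovaries, 0.34 ± 0.068 (adjusted p = 6.69e-05). Its libraries overlapped, at 52.3, 57.6 and 68.9 cpm in mod07570/+ and 78.6, 70.3 and 65 cpm in mod07570/L8. COX4, a nuclear subunit beside the catalytic core, was steadier, with 223, 231 and 227 cpm against 250, 256 and 251 cpm. That rise of 0.25 ± 0.026 (adjusted p = 4.89e-09) was without overlap. COX7A rose least, by 0.13.

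In complex I, 26 of 33 tested members rose and 1 fell, with a median of 0.20. ND-39, an accessory subunit, changed most of all members. It stood at 134, 126 and 128 cpm in mod07570/+ ovaries and at 183, 178 and 184 cpm in mod07570/L8 ovaries, a rise of 0.58 ± 0.032 (adjusted p = 7.67e-15), or 1.49-fold. Of the 7 nuclear subunits of the conserved core, a set listed after their values were seen, 6 rose: ND-49 by 0.38, ND-75 by 0.36, ND-51, which binds NADH, by 0.33, ND-30 by 0.32, ND-24 by 0.24 and ND-20 by 0.20. The remaining core subunit, ND-23, did not pass the test (0.09, adjusted p = 0.0775). ND-13B, an accessory subunit, was the only complex I member that fell, from 44.8, 42.9 and 45.6 cpm to 39, 37.3 and 38.9 cpm. Its change of -0.12 ± 0.054 lay close to the threshold (adjusted p = 0.0487) and did not pass it with DESeq2 (adjusted p = 0.122).

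Complex III was the most mixed, with 3 of 6 members that rose, 1 that fell and a median of 0.14. Both core proteins rose, UQCR-C1 by 0.23 and UQCR-C2 by 0.19, as did UQCR-14 by 0.35 ± 0.056 (adjusted p = 4.26e-06). UQCR-6.4 ranged from 26.5 to 38.5 cpm in mod07570/+ and from 19.8 to 29.3 cpm in mod07570/L8. These ranges overlapped, and its change of -0.24 ± 0.11 passed the threshold narrowly (adjusted p = 0.0462) but not with DESeq2 (adjusted p = 0.327).

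Seen as cpm alone, 31 members did not overlap between mod07570/L8 and mod07570/+ ovaries and were higher, where 32.2% of all features did so, and 1 member, ND-13B, was lower without overlap, where 47.3% of all features were. Markers of other cells moved between these ovaries too. The 6 chorion genes of late follicle cells summed to 2199 ± 18.3 cpm in mod07570/+ and 15030 ± 46.8 cpm in mod07570/L8, and all 6 rose. The 10 muscle genes summed to 149 ± 0.221 cpm and 310 ± 6.6 cpm, with 9 of 9 tested higher. Their part in the subunit changes was not tested, and in whole ovaries a change in the share of a cell type and a change in RNA per cell cannot be told apart.

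**Figure D2:**
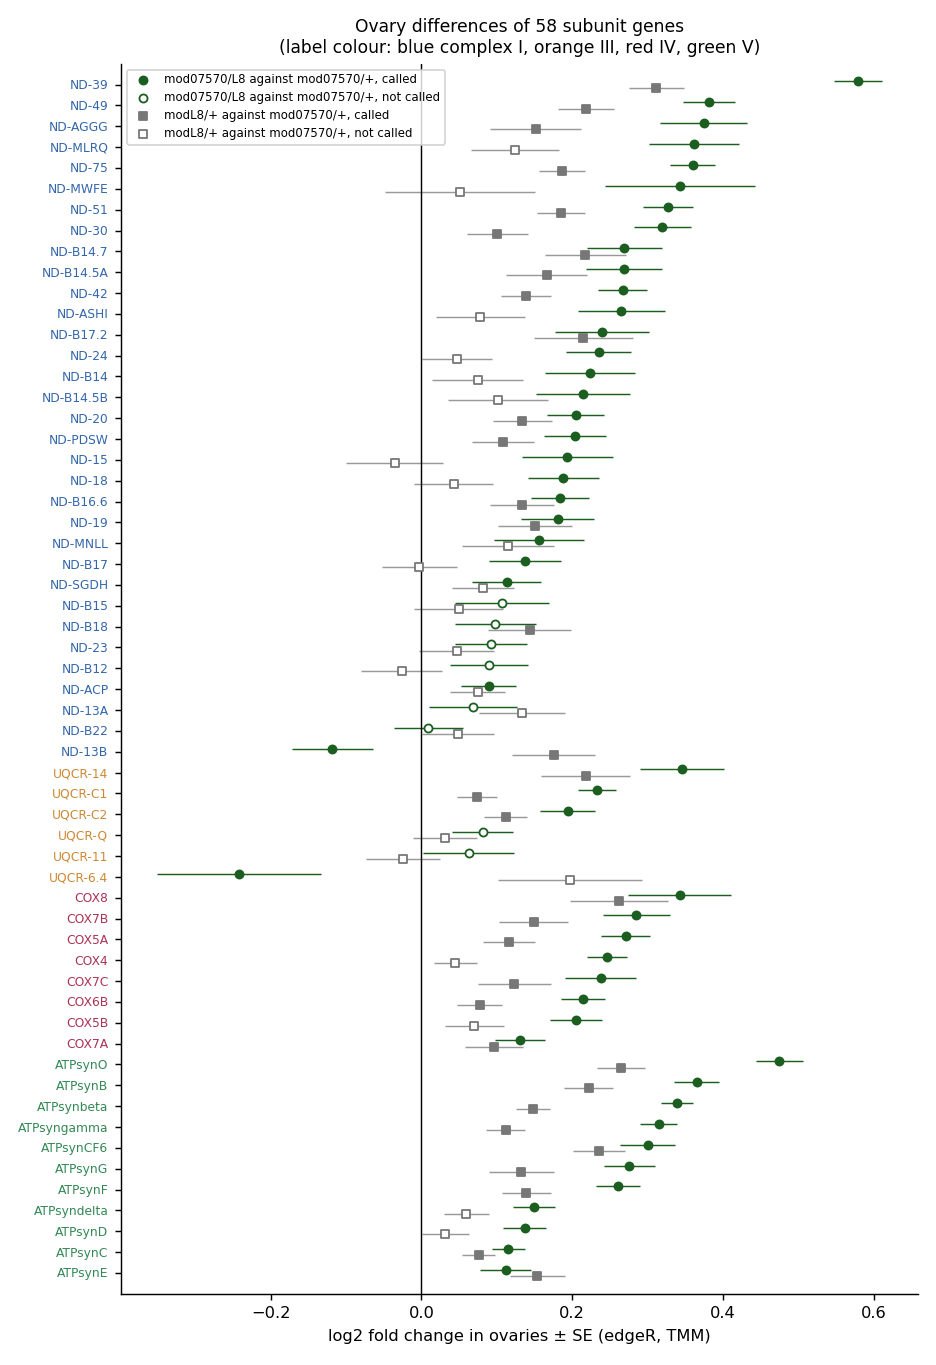
Log2 fold change ± SE of each of the 58 tested members (vertical axis, grouped by complex) in mod07570/L8 ovaries (circles) and modL8/+ ovaries (squares) against the same mod07570/+ libraries, with filled marks for adjusted p under 0.05. Against mod07570/+, 48 of 58 members rose in mod07570/L8 ovaries and 34 of 58 in modL8/+ ovaries, and ND-13B and UQCR-6.4 are the circles to the left of 0.

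The modL8/+ ovaries served as the other heterozygous control. Against them, 33 of 58 members rose in mod07570/L8 and 2 fell, where 36.4% of 8191 features rose and 36.3% fell, and the median was 0.12. By complex, 17 of 33 members of complex I, 2 of 6 of complex III, 6 of 8 of complex IV and 8 of 11 of complex V rose. ND-MWFE, a small membrane subunit of complex I, had the highest change, 0.29 ± 0.09 (adjusted p = 0.00614), with 22.4, 21.5 and 18.9 cpm in modL8/+ and 26.9, 25.4 and 20.8 cpm in mod07570/L8, which overlapped. ND-39 rose by 0.27, ATPsynO by 0.21 ± 0.032 (adjusted p = 4.5e-06) and COX4 by 0.20 ± 0.027 (adjusted p = 7.35e-07). UQCR-C1 had the highest change among complex III members, 0.16, and the smallest called rises of complexes IV and V were those of COX7C, 0.11, and ATPsyndelta, 0.09.

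Chorion genes rose from 5254 ± 112 cpm in modL8/+ to 15030 ± 46.8 cpm in mod07570/L8 and muscle genes from 114 ± 3.89 cpm to 310 ± 6.6 cpm in sum, and their part was not tested. The same ND-13B and UQCR-6.4 fell against modL8/+ ovaries, with edgeR and with DESeq2. ND-13B went from 52.5, 49.3 and 46.7 cpm in modL8/+ to 39, 37.3 and 38.9 cpm, a change of -0.29 ± 0.054 (adjusted p = 5.87e-05). UQCR-6.4 went from 33.6, 41.8 and 33.1 cpm to 29.3, 27.3 and 19.8 cpm, a change of -0.44 ± 0.1 (adjusted p = 0.000703). Neither gene overlapped between these groups.

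This comparison leaned on the scaling. With library totals in place of TMM factors, 17 members rose and 5 fell (30.1% and 44.3% of all features; the added ones were ND-13A, ND-B22 and ATPsynE), and the median became 0.05 against -0.07 for all features, so that the difference from all features was 0.12 under either scaling. In cpm, 17 members were higher without overlap, where 30.7% of all features were, and 4 were lower, where 45.0% were. These were ND-13B, UQCR-6.4, ND-13A and ATPsynE, the last 2 named after their values were seen.

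The 2 heterozygotes also differed. Of 58 members, 34 were higher in modL8/+ than in mod07570/+ ovaries and none was lower (0 lower also at an unadjusted p under 0.05 and with DESeq2), where 21.7% of 8052 features were higher and 20.5% lower. The median change was 0.12. ND-39 again changed most, from 134, 126 and 128 cpm to 164, 159 and 152 cpm, or 0.31 ± 0.036 (adjusted p = 1.08e-07). ATPsynO followed with 0.26 ± 0.032 (adjusted p = 2.22e-07), from a highest value of 198 cpm to 234, 221 and 228 cpm, and neither gene overlapped. COX8 rose by 0.26 and UQCR-14 by 0.22, while the smallest called changes in each complex were those of ND-30 (0.10), UQCR-C1 (0.07), COX6B (0.08) and ATPsynC (0.08). These groups share the mod07570/+ libraries with the first comparison, so the values of ND-39, 134, 126 and 128 cpm, enter both.

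By complex, 16 of 33 members of complex I, 3 of 6 of complex III, 6 of 8 of complex IV and 9 of 11 of complex V were higher in modL8/+ than in mod07570/+ ovaries. In cpm, 26 members were higher without overlap (22.0% of all features) and 0 were lower (29.4%). Markers of other cells differed here too. The 6 chorion genes summed to 2199 ± 18.3 cpm in mod07570/+ and 5254 ± 112 cpm in modL8/+ ovaries, with 6 of 6 higher, and of the fat body and yolk list, 2361 ± 28 cpm and 4223 ± 29.9 cpm, 3 of 3 tested genes were higher. The 10 muscle genes summed to 149 ± 0.221 cpm and 114 ± 3.89 cpm, with 6 of 9 tested lower, and the part of these cells was not tested. Leaving out mod07570/+ replicate 2 lowered the count of higher members from 34 to 21, and leaving out modL8/+ replicate 3 left it at 34.

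Because modL8 carries a deletion near the end of arm 3R, the members were also described by chromosome arm (arms from RefSeq, assembly Release 6). On 3R, 9 of 11 tested members were higher in modL8/+ than in mod07570/+ ovaries, with a median of 0.11 and changes from 0.03 to 0.27. The medians of 2L, 2R, 3L and X lay between 0.10 and 0.12, and those arms had 4 of 11, 4 of 9, 8 of 13 and 7 of 12 members higher. On chromosome 4, both of the 2 tested members were higher, with a median of 0.18. No member on 3R or on any other arm was called lower in modL8/+, and whether a member lies inside the deletion was not tested.

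The spread between replicates was widest among members with short transcripts. In mod07570/+ ovaries the median coefficient of variation was 7.5% for the 15 members whose shortest transcript is under 500 nucleotides, 3.68% for the 34 members from 500 to 1000 nucleotides and 1.84% for the 9 members over 1000 nucleotides. The shortest class also had the widest spread in each of the other 6 groups, up to 33.8% in heads with EEO. In mod07570/L8 ovaries the long class, at 3.02%, was not below the middle class, at 2.82%. UQCR-6.4, COX8 and ND-MWFE belong to the short class, and ND-39, ND-49, ND-51, ND-75, ATPsynbeta and the UQCR core proteins to the long one. All 9 long members rose in mod07570/L8 against mod07570/+ ovaries, with a median of 0.33, as did 10 of the 15 short members, with a median of 0.21. The part of transcript length, or of the level of counts, in the spread and in the changes was not tested.

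Other genes of the pathway were counted in the same way. A list of 13 genes held complex II, which oxidises succinate, and subunits of complexes III, IV and V under other names, such as blw, the alpha subunit of ATP synthase, and ox, a complex III subunit. Of 11 tested, 10 rose in mod07570/L8 against mod07570/+ ovaries, with a median of 0.27, 8 rose against modL8/+ ovaries, with a median of 0.15, and 6 were higher in modL8/+ than in mod07570/+ ovaries, with a median of 0.13. blw rose by 0.26 ± 0.021 (adjusted p = 1.36e-11) and SdhA, the flavin subunit of complex II, by 0.24 ± 0.029 (adjusted p = 4.48e-08) in the first of these comparisons. Cyt-c-p, the cytochrome c that links complexes III and IV, did not pass the test against mod07570/+ (-0.03, adjusted p = 0.356) and fell against modL8/+ ovaries (-0.09, adjusted p = 0.0297). The outer membrane channel porin passed in neither (-0.0047 and -0.0043), and the carrier Ant2 rose in both (1.25 and 0.70). sesB, which exchanges ADP and ATP across the inner membrane, rose by 0.33 in mod07570/L8 against either heterozygote and changed by -0.0021 between the heterozygotes.

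Known regulators of the pathway went in both directions. Of 6 regulators, 2 rose and 4 fell in mod07570/L8 against mod07570/+ ovaries. srl, the fly homolog of the coactivator PGC-1, stood at 748, 764 and 735 cpm in mod07570/+, at 665, 667 and 682 cpm in modL8/+ and at 566, 555 and 569 cpm in mod07570/L8. The groups did not overlap, and the fall of srl from the first to the last was -0.32 ± 0.023 (adjusted p = 2.24e-12). Ets97D, the homolog of the alpha subunit of GABP (NRF-2), fell by 0.37 and ewg, the homolog of NRF-1, rose by 0.48.

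In heads the same genotypes gave no called member. Of 59 members tested between mod07570/L8 and mod07570/+ heads, 0 rose and 0 fell with edgeR or DESeq2, 0 were past an unadjusted p of 0.05 and the smallest adjusted p was 0.313, where 1.59% of 9999 features rose and 1.94% fell. The median change was 0.12, against -0.024 for all features, with a range from -0.11 to 0.27. In cpm, 0 members were higher without overlap (8.42% of all features) and 0 were lower (11.6%). ND-39 stood at 243, 251 and 312 cpm in mod07570/+ heads and at 291, 289 and 313 cpm in mod07570/L8 heads. Its change of 0.19 ± 0.12 (adjusted p = 0.449) had the sign of the ovary change but was within the spread.

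The median SE of a member was 0.13 in heads and 0.042 in ovaries, and the median ovary change was 0.22. The median moved with single mod07570/+ heads, being -0.01 without replicate 2 and 0.24 without replicate 3. Replicate 3 was the highest of the mod07570/+ heads for ATPsynbeta, 1731 cpm against 1141 and 1268 cpm, as it was for the muscle genes.

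Whether the genotype acted unequally in the tissues was tested with an interaction term over 12 libraries, coded as the ovary change minus the head change. Of 59 members, 1 was higher and 0 lower (0 lower also at an unadjusted p under 0.05 and with DESeq2), where 18.1% of 10609 features were higher and 6.46% lower. That member was ND-39, with an ovary change larger by 0.40 ± 0.12 (adjusted p = 0.0365). The call did not hold with library totals (adjusted p = 0.109) or DESeq2 (adjusted p = 0.0794), and without head mod07570/+ replicate 2 the count of higher members went to 14. The median over the members was 0.14, below the 0.18 of all features.

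Heads with and without EEO were compared next, since the study looked for transcripts that go with the outgrowths. None of 59 members was called (0 at an unadjusted p under 0.05, 0 with DESeq2, smallest adjusted p 0.646), where 0.493% of 10137 features rose and 0.0296% fell. The median was 0.10 and the range -0.08 to 0.78. Replicate 1 of the heads with EEO stood highest for ATPsynC, at 3978 cpm against 2653 and 2070 cpm, while the heads without EEO lay at 2789, 2696 and 2581 cpm. Leaving out that library turned the median to -0.15, and leaving out replicate 3 with EEO gave 0.26. The 10 muscle genes summed in these heads with EEO to 18150, 12730 and 9425 cpm, and the part of muscle in the values was not tested. In cpm, 0 members were higher without overlap (8.37% of all features) and 1, ND-75, named after its values were seen, was lower (12.1%), at 741, 747 and 663 cpm against 796, 762 and 768 cpm.

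**Figure D3:**
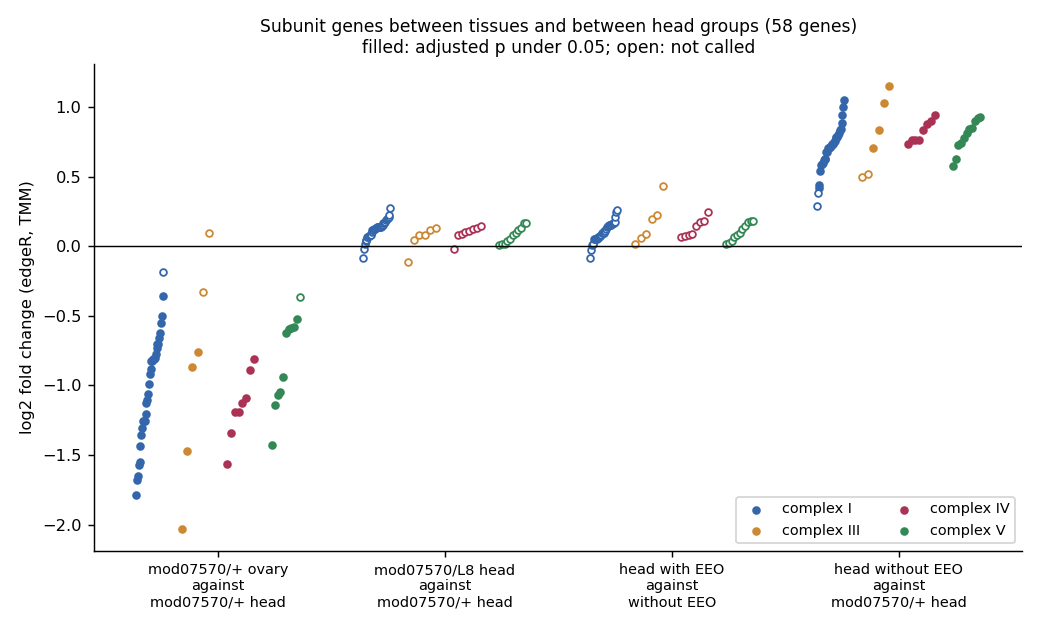
Log2 fold changes (vertical axis) of the 58 members with counts in both tissues, COX7AL2 being left out, for mod07570/+ ovaries against heads and for 3 comparisons of heads; each point is a member coloured by complex, filled for adjusted p under 0.05. Most members lay below 0 in ovaries against heads, with a median of -0.93, close to 0 but mostly above it, and none called, for mod07570/L8 and EEO heads (medians 0.12 and 0.10), and above 0, with a median of 0.75, in heads without EEO against mod07570/+ heads.

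Between tissues, most members were lower in ovaries than in heads of mod07570/+ flies. Of 59 members, 55 were lower and 0 higher (0 higher also at an unadjusted p under 0.05 and with DESeq2), where 47.2% of 10301 features were lower and 42.3% higher, and 50 of the 55 were past 1.5-fold. The median was -0.94, or 0.522-fold, against -0.14 for all features. It moved to -1.42 without head replicate 2, the library with 260 cpm of germline genes, and to -0.85 without ovary replicate 1. By complex, 32 of 33 members of complex I, 4 of 6 of complex III, 9 of 9 of complex IV and 10 of 11 of complex V were lower. These counts include the paralog COX7AL2, which could enter the test only through the heads, and without it, an alternative added after the data were seen, 54 of 58 members and 8 of 8 of complex IV were lower, 49 members past 1.5-fold, with a median of -0.93. In cpm, 33 members were lower without overlap (40.5% of all features) and 1 was higher (53.3%), which was ND-ACP, at 131, 125 and 124 cpm against 78, 92 and 110 cpm.

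The count depended on the scaling more than in any other comparison. With library totals, 28 members were lower and 2, ND-ACP and UQCR-6.4, higher (39.6% and 51.4% of all features), the median of the members was -0.31 and that of all features 0.48. The distance between these medians was -0.79, against -0.80 with TMM. Dissection, cell makeup and RNA content differ between an ovary and a head and cannot be told apart here. The 10 muscle genes summed to 149 cpm in these ovaries and to 3401, 3550 and 9152 cpm in these heads, and neuron and photoreceptor genes were likewise higher in heads.

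All 7 core subunits of complex I were lower in ovaries, with changes from -1.79 to -0.92. ND-51 stood at 143, 140 and 139 cpm in mod07570/+ ovaries and at 285, 310 and 348 cpm in the heads, a change of -1.79 ± 0.094 (adjusted p = 5.73e-06). ND-39 changed by -1.68, ND-49 by -1.65, ND-23 by -1.57, ND-75 by -1.55 and ND-B17.2 by -1.44. Among the other core subunits, ND-20 changed by -1.26, ND-30 by -1.10 and ND-24 by -0.92. ND-19, an accessory subunit, differed least among the called members of complex I, by -0.36 ± 0.14 (adjusted p = 0.0437), a direction that turned with library totals (0.26). Its cpm was 56.4, 52.6 and 57.3 in ovaries and 39.7, 43 and 56 in heads, which overlapped. ND-ACP, the mitochondrial acyl carrier protein that also serves fatty acid synthesis, did not pass the test (-0.18, adjusted p = 0.16).

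In complex III, UQCR-14 was the furthest apart, with 44.6, 43.1 and 49.3 cpm in mod07570/+ ovaries and 103, 105 and 154 cpm in the heads, or -2.03 ± 0.18 (adjusted p = 6.84e-05). UQCR-C2 changed by -1.47 and UQCR-Q, the least of those called, by -0.76. UQCR-11 (-0.33, adjusted p = 0.118) and UQCR-6.4 (0.09, adjusted p = 0.738) did not pass the test. UQCR-6.4 stood at 26.5, 30.7 and 38.5 cpm in these ovaries and at 15, 16.5 and 27.1 cpm in these heads, which overlapped narrowly.

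Members of complexes IV and V were mostly lower in ovaries as well. COX8 had 52.3, 57.6 and 68.9 cpm in mod07570/+ ovaries and 99.9, 102 and 141 cpm in the heads, a change of -1.56 ± 0.18 (adjusted p = 0.000222), and COX7A, the least of the called standard subunits, changed by -0.81. ATPsynB led complex V with -1.43 ± 0.14 (adjusted p = 9.37e-05), from 190, 208 and 204 cpm in ovaries to 307, 323 and 420 cpm in heads. ATPsyndelta changed by -0.53, and by 0.10 with library totals, as its 178, 185 and 181 cpm in ovaries lay within the 152, 160 and 195 cpm of heads. ATPsynC did not pass the test (-0.37 ± 0.16, adjusted p = 0.0704), and its cpm in these ovaries, 1847, 1845 and 1843, lay inside the range of the heads, 1257, 1426 and 1957.

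All 11 tested genes of the wider pathway list were lower in mod07570/+ ovaries than in heads, with a median of -1.42. The regulators ran the other way, with 4 of 6 higher in ovaries and 1 lower. srl changed by 3.37 ± 0.67 (adjusted p = 0.00266), with 19.7, 107 and 21.2 cpm in the heads. The middle value is that of head replicate 2, which also held 216 cpm of the oocyte transcript osk, against 0.213 and 3.35 cpm in the other mod07570/+ heads.

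Among the paralogs, COX7AL2 was the one limited to a tissue. It is a second gene for subunit COX7A of complex IV, on arm 2L and not on the arm of COX7A. In ovaries it had 4 counts over 9 libraries, 1 in modL8/+ replicate 1 and 3 in mod07570/L8 replicate 3. In heads it was found in all 12 libraries, with 2330 counts in all. Its cpm in heads was 3.05, 3.65 and 8.58 in mod07570/+, 3.5, 4.46 and 5.58 in mod07570/L8, 45.6, 17.1 and 12.5 with EEO and 16.3, 17.1 and 11.9 without EEO. Against a floor of 3 counts per library, 0.196 cpm, in mod07570/+ ovaries, the level in mod07570/+ heads was at least 26-fold higher, or at least 17.1-fold without mod07570/+ head replicate 3. COX7AL2 entered the test only through the heads, where it is high, so its call between tissues adds nothing to that bound.

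COX7A was found in every library, and was lower in ovaries than in heads of mod07570/+ after TMM scaling (-0.81). Its cpm on library totals ran from 139 to 156 over the 9 ovary libraries and from 144 to 176 over the heads of mod07570/+ and mod07570/L8, and was between 272 and 382 in the heads from the KrIf-1 cross. Transcripts of COX7AL2 are as short as 295 nucleotides, and its TPM in mod07570/+ heads, 229.9 ± 112, rests on few counts.

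**Figure D4:**
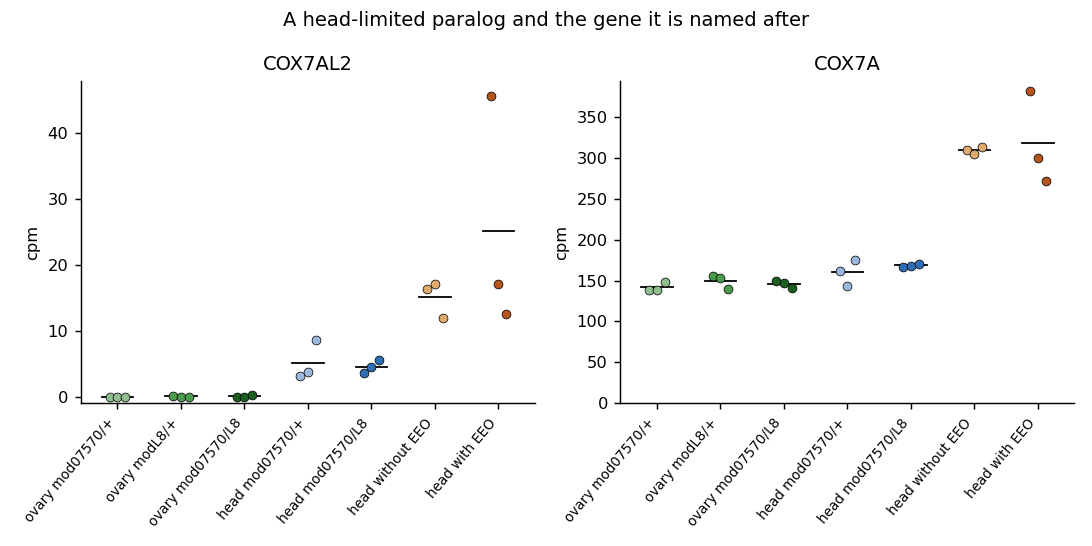
Cpm of COX7A and of its paralog COX7AL2 in each of the 21 libraries; points are libraries and lines group means. COX7A is seen in every library between 139 and 382 cpm, and COX7AL2 in heads between 3.05 and 45.6 cpm, with at most 3 counts in an ovary library.

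The other 20 paralogs were nearly silent. No count at all was found for ND-20L, ND-B14.5AL and UQCR-14L in any of the 21 libraries, although their partners ND-20, ND-B14.5A and UQCR-14 reached at least 34.1 cpm in each. Of the 21 low members, 18 had a count in some head library and 11 in some ovary library. COX5BL was the steadiest, with counts in all 21 libraries and at most 0.663 cpm. The 8 testis markers summed to at most 2.72 cpm in any library.

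ATPsynbetaL, a second gene for the catalytic beta subunit, and ATPsynepsilonL, a second gene for sun, came closest to the filter. ATPsynbetaL had 18, 13 and 30 counts in heads with EEO and 2, 2 and 1 counts in heads without EEO, without overlap. Of the 10137 features past the filter, 8.37% were higher with EEO without overlap in cpm. ATPsynbetaL was below the filter on low counts. The edgeR test without the filter gave it a change of 3.74 ± 0.55 (log2, adjusted p = 0.04), where 0.348% of 14653 features rose. In mod07570/L8 heads it had 5, 5 and 7 counts, in mod07570/+ heads 2, 2 and 0 and in ovaries 3 counts over 9 libraries. ATPsynepsilonL had 20, 6 and 4 counts with EEO and 7, 10 and 9 without EEO, which overlapped.

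ND-B8 was the low member that is no paralog by its symbol. It was at 0 in all 9 ovary libraries and had at most 16 counts in a head library. Among the 20 low paralogs, 8 were at 0 in every ovary library and COX6AL2 was estimated there at far below 1 count.

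Of the 21 paralogs, 6 lie on the chromosome arm of their partner. COX7CL is next to COX7C with no protein-coding gene between them, COX5BL is separated from COX5B by 1 gene and COX7AL from COX7A by 2 genes. These neighbours differed widely from their partners: COX7CL had at most 3 counts in a library where COX7C never fell below 71.6 cpm.

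Heads from the KrIf-1 cross were set against mod07570/+ heads in a comparison added after the data were seen. Every one of the 59 members was higher in each library without EEO than in each mod07570/+ library, where 38.4% of 10139 features were (10.1% were lower without overlap), and 55 passed the test with 0 lower (0 at an unadjusted p under 0.05, 0 with DESeq2), where 15.1% rose and 9.96% fell. The median change was 0.75, or 1.69-fold, against 0.02 for all features, and 50 members were past 1.5-fold (54 of 58 higher and 49 past 1.5-fold without COX7AL2). ND-AGGG, ND-49, UQCR-11 and UQCR-14 were higher but not past the threshold.

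4 members rose past 2-fold in this cross. COX7AL2 rose by 1.41 ± 0.38 (adjusted p = 0.0375), UQCR-6.4 by 1.15 ± 0.24 (adjusted p = 0.0182), ND-13B by 1.05 ± 0.15 (adjusted p = 0.00572) and UQCR-Q by 1.03 ± 0.16 (adjusted p = 0.00808). UQCR-6.4 and ND-13B were also the 2 members called lower in mod07570/L8 ovaries with edgeR, although DESeq2 called neither against mod07570/+ ovaries. ND-13B stood at 36.6, 37.7 and 52.2 cpm in mod07570/+ heads and at 104, 103 and 89.1 cpm in heads without EEO. ATPsynCF6, a stator subunit, led complex V with 0.92, and ATPsynbeta rose least, by 0.57, from 1141, 1268 and 1731 cpm to 2387, 2355 and 2196 cpm. The smallest called changes of the other complexes were those of ND-20 (0.42), UQCR-C1 (0.70) and COX6B (0.73). Of the wider pathway list, 10 of 11 rose, with a median of 0.77.

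Other markers separated the same libraries. The yolk protein gene Yp1, made by the female fat body, was between 27340 and 57490 cpm in the heads of mod07570/+ and mod07570/L8 and at most 6.1 cpm in the heads from the KrIf-1 cross. The roX RNAs of male dosage compensation summed to between 2.98 and 4.55 cpm in the former and to between 699 and 1177 cpm in the latter. The 10 muscle genes summed to 11680, 12100 and 9943 cpm in heads without EEO, all above the 9152 cpm of the highest mod07570/+ head. By Yp1 and roX the heads of mod07570/+ and mod07570/L8 were female and the KrIf-1 cross heads male. The comparison of these heads therefore also sets males against females. Sex, genotype, the cross and the muscle difference cannot be told apart. The count of called members also rested on the number of libraries, since leaving out replicate 1, 2 or 3 without EEO left 10, 17 or 30, while the median stayed between 0.58 and 0.87 whichever library was left out.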

How the data were processed

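RNA of ovaries and heads was extracted with Trizol, selected for poly(A) and sequenced as read pairs. The authors mapped the reads with Bowtie 2 to RefSeq gene transcripts and transposon consensus sequences and quantified them with eXpress, whose version is not given in the sources used here. The deposited estimated counts are fragments per transcript after the authors' eXpress run divided ambiguous reads. The deposited unique counts are reads that eXpress in the authors' run placed on 1 transcript only, so they omit reads shared by isoforms of a gene. The deposited TPM values were made by the authors in the same run, corrected for effective length. The peak lists and the ChIP and IP data of the series were not used here.

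Each table lists 34563 sequences, 126 of them transposons. Of 34437 RefSeq transcripts, 34035 were matched to a gene in a RefSeq table (assembly Release 6), and the 402 others, each kept under its own name, took up to 0.321% of a library's counts. The 80 members had 186 transcripts. Estimated counts were summed per gene and rounded. Library totals ran from 12820086 to 22695680 counts, and cpm was taken on these totals. Over all features, chi-square per degree of freedom between replicates was 1.96 to 2.69 in ovaries and 5.42 to 153 in heads. A value of 1 is counting error alone, so counting error is not small beside the spread between ovary libraries. A feature entered a fit if 3 or more of its libraries had 1 cpm or more, and quasi-likelihood F tests were run in edgeR 4.0.16 (R 4.3.3) with TMM factors, with Benjamini-Hochberg adjustment over all features and a threshold of 0.05. Only the libraries of the groups compared entered a fit. Log2 fold changes are given with their SE. The alternatives were unique counts, library totals, DESeq2 1.42.0, no filter, a replicate block, an added 1.5-fold threshold, all groups of a tissue in 1 fit and each library left out. Scripts were tested on simulated counts. Tables and figures used Python 3.11.15 with numpy 2.4.6, pandas 2.3.3 and matplotlib 3.10.9.

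Groups were taken from the labels. Named genes are, for each comparison and complex, the called members with the highest and lowest change, called members past 2-fold (at most 10 in each direction), members of highest and lowest mean TPM, and paralogs, besides genes given for their role. Members, lists and tests were chosen with earlier results of these data known.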

Additional observations from a re-analysis of the deposited data

Results flagged for a closer look

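ND-39 was the 1 member whose ovary and head changes differed by the test of the difference itself. The interaction of tissue and genotype was 0.40 ± 0.12 on the log2 scale (edgeR adjusted p = 0.0365). The ovary change was 0.58 and the head change 0.19. The call did not hold with library totals or DESeq2, and 18.1% of all 10609 features were higher in this test. The adjusted p lay between 0.000483 and 0.0885 when each of the 12 libraries was left out, at 0.0345 with the replicate number as a block and at 0.0531 without the filter on low counts.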

How the results depend on the processing

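Unique counts, which omit reads shared by isoforms, gave 11 higher and 5 lower members for mod07570/L8 against mod07570/+ ovaries, 6 and 5 against modL8/+, 7 higher for modL8/+ against mod07570/+, 1 higher in mod07570/L8 heads, 1 higher with EEO, 4 higher and 29 lower in ovaries against heads, and 0 higher and 3 lower for the interaction. With them the sign turned for COX8 (-0.89 for mod07570/L8 and -0.68 for modL8/+ against mod07570/+ ovaries, 0.90 between tissues), ATPsyndelta (-0.50 against modL8/+), UQCR-C1 (-0.049) and COX6B (-0.49) between the heterozygotes and ND-B17.2 (0.067) between tissues. Unique counts are 0.224% of the counts of COX8, 1.61% for ATPsyndelta, 6.73% for UQCR-C1, 1.96% for COX6B and 0.952% for ND-B17.2. An added 1.5-fold threshold left 0 members in either direction for mod07570/L8 ovaries, 0 higher for modL8/+ and 0 for the interaction. DESeq2, the replicate block and 1 fit of all ovary groups each left 0 lower members for mod07570/L8 against mod07570/+ ovaries, and DESeq2 left 0 for the interaction. Library totals gave 17 higher and 5 lower against modL8/+, 28 lower and 2 higher in ovaries against heads and 0 for the interaction, and turned ND-19 (0.26) and ATPsyndelta (0.10) between tissues. Without the filter on low counts 1 member, ATPsynepsilonL with at most 4 counts in an ovary library, was lower in modL8/+, 1 higher with EEO and 0 called for the interaction. With 1 library left out, counts ranged from 0 to 1 lower (mod07570/L8 against mod07570/+), 21 to 34 higher (modL8/+ against mod07570/+), 0 to 14 higher and 0 to 1 lower (interaction) and 10 to 59 higher (without EEO against mod07570/+ heads). The cause of these changes was not tested, beyond the shared isoform reads that unique counts drop.

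Deviations of same-numbered libraries correlated across genes by between -0.027 and 0.0201 in the comparisons of ovary groups. Between mod07570/L8 and mod07570/+ heads they correlated by 0.0962, 0.0484 and 0.149, and libraries of unlike number by -0.144 to 0.0199. Between heads with and without EEO the values were 0.117, -0.00088 and 0.127, and -0.123 to 0.0331 for unlike numbers. Whether replicate numbers mark paired samples was not tested. The replicate block left 48 higher members for mod07570/L8 against mod07570/+ ovaries, 27 for modL8/+ and 49 for heads without EEO. The limits are the 3 libraries per group, the spread of the mod07570/+ heads and the ambiguous reads that eXpress divided. Division among isoforms of a gene does not alter counts summed per gene. Of 10 tested members with a single transcript, 7 rose and 1 fell in mod07570/L8 against mod07570/+ ovaries, with a median of 0.28. Between mod07570/+ ovaries and heads, 10 of these 10 were lower in ovaries.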
